A study of Mus musculus with 12 samples.

Results

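The 49 genes described here encode the integrin subunits, laminin chains and adhesive glycoproteins by which cells hold on to the matrix around them. They were picked by gene symbol from the 46731 genes of an RNA sequencing (RNA-seq) table. The rule used no measured value, but it was drawn up with earlier results of these data known. The receptors were 12 integrin α and 7 integrin β subunits. The 30 ligands were 9 laminin chains, 4 basement membrane linkers, 9 adhesive glycoproteins and 8 matricellular or elastic fibre genes. Values were FPKM, in which the fragments on a gene are divided by its length and by a library factor, so that levels of different genes can be set side by side per length. Of the 49 genes, 26 (7 receptors and 19 ligands) had 1 FPKM or more in 3 or more of the 12 libraries and were tested. The other 23 genes did not reach this limit. *Npnt* lay just inside it, with a third-highest FPKM of 1.06, and *Fbln2* lay just outside, with 0.811.

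The libraries came from ATDC5, a mouse line of teratocarcinoma origin that can be driven towards cartilage. There were 3 libraries, labelled as replicates, in each of 4 groups. All cells carried a hairpin cassette that a lentivirus had integrated into the genome, and they were selected with puromycin. The cassette was a negative control (shRNA-NC) or was aimed at *Ddx5* (shRNA-*Ddx5*), which encodes an RNA helicase. Each line was left unstimulated (medium) or received 5 ng/ml IL-1β together with 25 ng/ml TNF-α (cytokines), and the labelled time was 6 h in every group. Whether a line was a pool or a single clone is not given in the sources used here, and an effect of the hairpin and a property of the selected line cannot be told apart. The study calls its replicate experiments biologically independent, and the p-values measure the spread between such replicates of a single line per hairpin. The comparisons ask how reduced *Ddx5* went together with these genes in each condition, and whether receptors and ligands moved alike.

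An integrin is a pair of an α and a β subunit that spans the cell membrane and ties the matrix to the actin cytoskeleton. The β1 subunit pairs with most α subunits. With α5 it binds fibronectin, with α3 or α6 it binds laminin, and with α11 it binds fibrillar collagen, whereas αv integrins bind several glycoproteins through the tripeptide arginine-glycine-aspartate (RGD). Laminins are trimers of an α, a β and a γ chain that form basement membranes with nidogen, perlecan and agrin, and in cartilage related proteins lie in the thin pericellular matrix around each chondrocyte. Tenascins, thrombospondins, periostin and SPARC are matricellular proteins, which alter how cells adhere rather than building the scaffold, while fibrillin, fibulins and emilins belong to elastic fibres.

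The RGD codons of the ligands are shown because this tripeptide is the best known point of contact between ligand and integrin. In the representative coding transcripts of GENCODE M39 (GRCm39), an RGD motif occurred in 18 of the 30 ligands (60.0%) and in 11 of the 19 tested ligands (57.9%). It occurred in 6 of the 19 integrin subunits (31.6%) and in 1548 of the coding transcripts of 21483 genes (7.21%). The 4 ligands with the largest log2 fold changes on log2(FPKM + 1) with the hairpin in medium were not alike in this respect, since *Tnn* and *Fbln5* carry the motif and *Tnc* and *Sparc* do not. A match describes the letters only and not whether an integrin can reach the site. The tested ligands *Emilin1* and *Fbn1* also carry the motif and are not printed. Each line below gives 30 coding bases, 5′ to 3′ in the sense of the gene, with the 3 RGD codons in capitals.
Fn1, first motif, chr1:71645896-71645925, minus strand, exon 30: gctgtcactggcCGTGGGGACagtccagca
Fn1, second motif, chr1:71636593-71636622, minus strand, exon 40: ggtcatgttcccAGGGGAGACgtagactac
Tnn, chr1:159966847-159966876, minus strand, exon 6: gttgtgcccatcCGAGGTGATctggaggga
Npnt, chr3:132597248-132610446, minus strand, exons 8 and 9 without the intron: cctcagaaacccAGAGGAGATgtgttcatt
Spp1, chr5:104587335-104587364, plus strand, exon 6: gtccccaacggcCGAGGTGATagcttggct
Thbs1, chr2:117953158-117953380, plus strand, exons 17 and 18 without the intron: gatggtgatggcCGAGGTGACgcctgcaaa
Thbs2, chr17:14891737-14893409, minus strand, exons 17 and 18 without the intron: gacggtgacggcCGAGGTGACatttgtaaa
Nid2, chr14:19847312-19847341, plus strand, exon 12: cagcctgggtatCGAGGGGACgggtttcac
Hspg2, chr4:137246097-137246232, plus strand, exons 23 and 24 without the intron: cccgccagcttcCGAGGGGACaaggtgacg
Fbln5, chr12:101776177-101776206, minus strand, exon 4: cctgaggcttgtCGTGGGGACatgatgtgt
The paralogues *Thbs1* and *Thbs2* carry the motif at codons 927 and 928, in the same pair of exons.

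DDX5 is known as a helicase that can unwind G-quadruplexes, stacked folds of guanine-rich nucleic acid, so the promoters were searched for their sequence pattern. RefSeq promoters (GRCm38.p6) were at hand for 37 of the 49 genes, in 47 promoters. The pattern was 4 runs of GGG or longer, joined by loops of 1 to 7 bases, on either strand of the 250 bases before the start. Shorter runs are missed by it, such as the GG runs of the *Col2* promoter sequence that the study reports DDX5 to unfold. Bases further upstream were not searched. The pattern matched 12 of the 47 promoters (25.5%) and 5462 of all 32851 promoters (16.6%). Among tested genes the matches were *Itga3*, *Itga11*, *Itgb5*, *Lamb2*, *Hspg2*, *Agrn*, *Npnt*, *Thbs3* and *Fbn1*, which include genes that rose with the hairpin, genes that fell and genes that did neither. A match is printed below for each of 3 genes that rose with the hairpin (*Itga11* and *Npnt* in both conditions, *Hspg2* with cytokines) and 2 that fell in medium (*Itgb5* and *Agrn*), with the guanine runs in capitals. Loop bases could themselves be guanines, so a long run could be split by a loop. The *Hspg2* match is of this kind and shows fewer than 4 unbroken runs.
Itga11, chr9:62677672-62677691, strand of the gene: GGGctGGGagtGGGGGaGGG
Npnt, chr3:132950295-132950318, strand of the gene: GGGcaccaGGGcggcGGGGcaGGG
Hspg2, chr4:137468756-137468773, strand of the gene: GGGGGGGtGGGGGGtGGG
Itgb5, chr16:33829619-33829642, opposite strand: GGGacGGGGcGGGGcgagctcGGG
Agrn, chr4:156197652-156197675, strand of the gene: GGGtcgcaGGGagcGGGGGGcGGG
The AP-1 motif TGANTCA, searched on both strands, was found in 0 of the 47 promoters and in 6.75% of all promoters. The NF-κB motif matched 3 of the 47 (6.38%, in *Tnn*, *Thbs2* and *Lamb3*) against 3.90% of all. The CArG box matched 2 of the 47 (4.26%, in *Itgb6* and *Lama2*) against 1.47%. The motifs may overlap each other, and a window without a match says only that these letters are not in these bases.

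The libraries held 14119199 to 19276520 fragments on genes. *Ddx5* itself had means of 319 ± 22.3 FPKM (SD, n = 3) for shRNA-NC and 103 ± 13.9 for shRNA-*Ddx5* cells in medium, and at 310 ± 14.9 and 99.5 ± 5.27 with cytokines, without overlap. Libraries of a group correlated at 0.973 to 0.993 and libraries of different groups at 0.897 to 0.961. Within the shRNA-NC cytokine group, replicate 1 was the lowest of the 3 libraries for 18 of the 26 tested genes and replicate 2 was the highest for 19. Over all tested genes these 2 libraries held those places for 41.9% and 30.8%. The mitochondrial fragment share was 1.85, 2.05 and 1.81% in shRNA-NC and 2.16, 2.64 and 2.83% in shRNA-*Ddx5* libraries in medium, without overlap, and 2.88, 1.85 and 1.70% against 1.66, 1.78 and 1.65% with cytokines. Its part in the results was not tested. Of 11 chondrogenic markers, 3 (*Sox9*, *Sox5* and *Col2a1*) passed the limit, *Cnmd* was at 0 throughout, and *Acan* stayed at or below a group mean of 0.0243 FPKM. The summed FPKM of these markers was 39.1 to 44.3 in shRNA-NC and 26.3 to 30.2 in shRNA-*Ddx5* libraries in medium, and 12.9 to 18.0 and 7.25 to 8.01 with cytokines. In medium *Col2a1* fell with the hairpin, from a mean of 12.4 to 0.899 FPKM, while *Sox9* and *Sox5* did not pass (log2 differences -0.19 and -0.17). The untested *Sox6*, *Col9a1* and *Hapln1* had higher means there, at 0.91, 0.21 and 0.11 against 0.17, 0 and 0 FPKM. With cytokines *Col2a1* and *Sox9* fell and *Sox5* did not pass. *Col2a1* passed the limit through shRNA-NC libraries alone. The 4 fibroblast markers (3 passed, none at 0) summed to 15.9 to 23.0, 107 to 117, 7.19 to 20.4 and 97.4 to 115 FPKM in the same order of groups. Most of this was *Col1a1*, with group means of 19.7, 111, 12.1 and 96.0 FPKM. *Col1a1* and *Dcn* rose with the hairpin in both conditions, and *Pdgfra* rose with cytokines and had a log2 difference of -0.06 in medium (limma adjusted p = 0.75). *Dcn* passed the limit through shRNA-*Ddx5* libraries alone, with group means of 0.0289, 0.940, 0.146 and 4.55 FPKM. The 4 myofibroblast markers (*Acta2* passed the limit, and *Tagln* had at most 1 fragment) summed to 0.554 to 0.668, 11.7 to 11.99, 0.544 to 2.64 and 17.4 to 19.6. *Acta2* rose in both conditions and made up nearly all of this sum, while *Tagln*, *Cnn1* and *Myh11* stayed at or below a group mean of 0.118 FPKM. With group means of 0.546, 11.7, 1.19 and 18.5 FPKM, *Acta2* passed the limit mainly through shRNA-*Ddx5* libraries. The part of these markers in the results that follow was not tested. The 6 leukocyte markers (*Ptprc* at 0, and *Adgre1* with at most 1 fragment) summed to 5.30 to 5.62, 6.12 to 7.63, 7.85 to 10.6 and 11.4 to 12.1. The 2 of them that passed the limit made up most of this sum in each group. Endothelial and epithelial markers (5 genes each, with *Cdh5*, *Epcam* and *Krt19* at 0) stayed at or below 0.187 and 0.116. In bulk RNA, fewer cells of a type and less RNA per cell cannot be told apart.

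With the *Ddx5* hairpin, most tested adhesion genes had more RNA, and the ligands led. In medium 14 of the 26 tested genes rose, 4 fell and 8 did not pass the test (limma on log2(FPKM + 1), Benjamini-Hochberg adjusted p under 0.05). Over all 12368 genes tested, 47.0% passed, 25.3% upward and 21.7% downward. With cytokines 16 rose, 2 fell and 8 did not pass, and over all genes 45.6% passed, 23.5% upward and 22.1% downward. The median log2 fold change of the 26 genes was 0.57 in medium and 0.66 with cytokines, against 0.03 and 0.01 over all genes. The libraries of the 2 lines did not overlap for 20 of the 26 genes in medium (53.5% of all genes) and for 19 with cytokines (61.6%). *Npnt*, *Itga3*, *Itga6*, *Itga11*, *Tnc* and *Agrn* were below 1 FPKM in at least 1 library and passed the limit through the groups in which they were higher. Among the 20 genes at or above 1 FPKM in all 12 libraries, 10 rose and 2 fell in medium, and 13 rose and 1 fell with cytokines. The genes that rose in both conditions were *Itga11*, *Itgb1*, *Lamc1*, *Nid2*, *Fn1*, *Tnc*, *Tnn*, *Npnt*, *Thbs3*, *Sparc*, *Postn* and *Fbln5*, and *Itga6* and *Lamb1* fell in both.

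**Figure D1:**
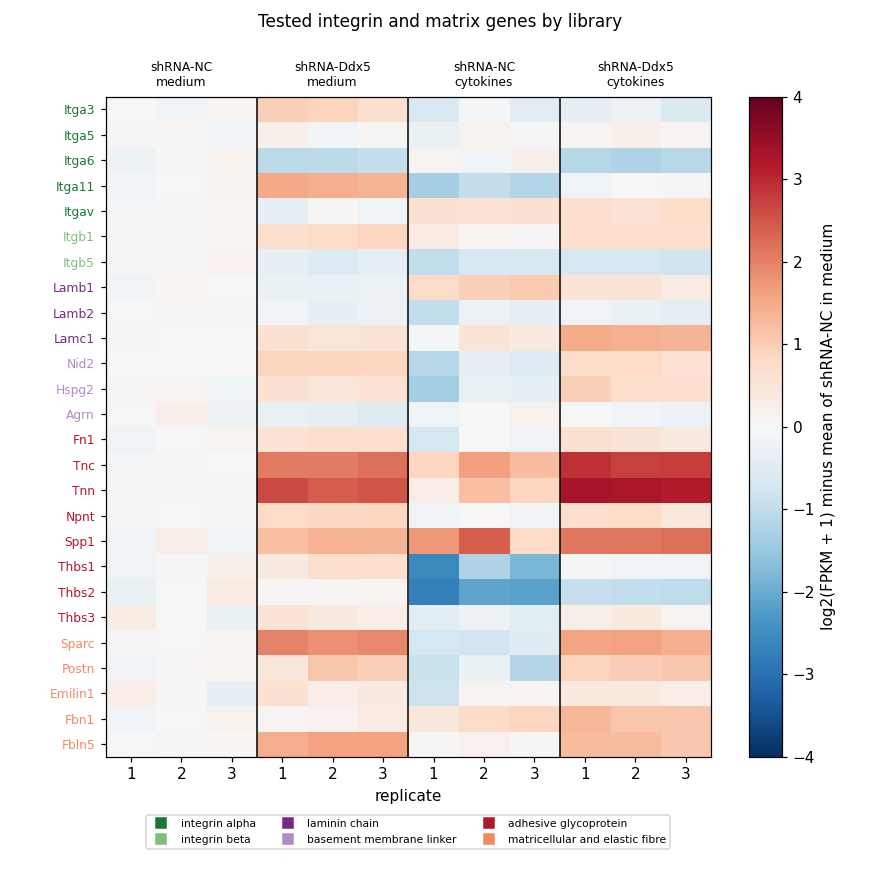
Heat map of the 26 tested genes (rows, coloured by role) in the 12 libraries (columns), with log2(FPKM + 1) of each library minus the mean of the shRNA-NC libraries in medium. The shRNA-*Ddx5* columns are red for *Tnc*, *Tnn*, *Sparc* and *Fbln5* in both conditions and blue for *Itga6*, and the shRNA-NC cytokine columns are blue for *Thbs1* and *Thbs2*.

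Among the integrin α subunits, the collagen receptor subunit *Itga11* (gene 319480, GRCm39 chr9:62585137-62691618, plus strand) rose most with the hairpin and fell with the cytokines. Its FPKM in shRNA-NC cells in medium was 1.79, 2.00 and 2.35, and in shRNA-*Ddx5* cells it was 7.60, 7.39 and 6.78. With cytokines it was 0.201, 0.567 and 0.337 in shRNA-NC and 1.75, 2.00 and 1.93 in shRNA-*Ddx5* cells. Every shRNA-*Ddx5* library thus lay above every shRNA-NC library of the same condition, and the cytokine-treated knockdown cells lay near the untreated control cells. The mean FPKM was 3.54-fold higher in medium (log2 fold change 1.44, standard error (SE) 0.11, limma adjusted p = 3.3e-06) and 5.14-fold higher with cytokines (1.09, SE 0.11, limma adjusted p = 2.0e-05). The log2 scale adds 1 to each FPKM and so understates the change of a gene as low as this.

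The laminin receptor subunits *Itga6* and *Itga3* went in opposite directions in medium. *Itga6* (gene 16403, chr2:71617236-71688771, plus strand) was at 1.56, 2.05 and 2.19 FPKM in shRNA-NC and 0.371, 0.420 and 0.494 in shRNA-*Ddx5* cells in medium, and at 2.12, 1.71 and 2.34 against 0.319, 0.249 and 0.366 with cytokines. No shRNA-*Ddx5* library came near a control library, and *Itga6* passed the limit through the shRNA-NC groups alone. It was 4.51-fold lower in medium (log2 fold change -1.03, SE 0.11, limma adjusted p = 3.3e-05) and 6.61-fold lower with cytokines (-1.22, SE 0.11, limma adjusted p = 1.1e-05). *Itga3* (gene 16400, chr11:94935301-94967637, minus strand) was at 1.75, 1.53 and 1.94 FPKM in shRNA-NC and at 4.27, 4.04 and 3.30 in shRNA-*Ddx5* cells in medium. With cytokines it was at 0.811, 1.61 and 1.03 in shRNA-NC and at 1.07, 1.34 and 0.812 in shRNA-*Ddx5* cells. The 2 lines were apart in medium and overlapped with cytokines. The difference in medium was 2.22-fold (log2 fold change 0.83, SE 0.15, limma adjusted p = 0.00088), and with cytokines the log2 difference was -0.04 with a 95% interval of -0.37 to 0.28 (limma adjusted p = 0.83).

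The fibronectin receptor subunit *Itga5* (gene 16402, chr15:103252713-103275218, minus strand) had the highest FPKM of the α subunits and did not pass in any comparison. It was at 40.4, 39.7 and 36.2 in shRNA-NC and 44.9, 35.9 and 40.4 in shRNA-*Ddx5* cells in medium, and at 32.3, 42.5 and 37.6 against 41.8, 45.2 and 41.9 with cytokines. The groups overlapped in every comparison. The log2 difference between the lines was 0.05 in medium (95% interval -0.19 to 0.29), turning to -0.13 after quantile normalization, -0.099 after rescaling to the FPKM sum and -0.048 with voom weights, and 0.20 with cytokines (-0.04 to 0.44). *Itgav*, the α subunit of the RGD-binding αv integrins, had means of 13.2 ± 1.08 FPKM (SD, n = 3) for shRNA-NC and 11.8 ± 2.02 for shRNA-*Ddx5* cells in medium. It did not pass between the lines, at -0.16 in medium and 0.07 with cytokines. The value in medium was -0.27 and past the threshold without shRNA-*Ddx5* medium replicate 2 (limma adjusted p = 0.046), and that with cytokines turned to -0.033 after rescaling.

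The common β subunit *Itgb1* (gene 16412, chr8:129412135-129460060, plus strand) was the receptor gene of highest FPKM and rose with the hairpin. Its FPKM was 87.8, 90.4 and 101 in shRNA-NC and 151, 160 and 169 in shRNA-*Ddx5* cells in medium, and 118, 101 and 96.2 against 149, 145 and 148 with cytokines. The lines did not overlap in either condition. The rise was 1.72-fold in medium (log2 fold change 0.78, SE 0.09, limma adjusted p = 5.7e-05) and 1.41-fold with cytokines (0.49, SE 0.09, limma adjusted p = 0.0012). *Itgb5*, which pairs with αv, had means of 89.4 ± 9.20 FPKM (SD, n = 3) for shRNA-NC and 67.2 ± 4.49 for shRNA-*Ddx5* cells in medium, a fall (log2 fold change -0.41, SE 0.11, limma adjusted p = 0.0090). With cytokines the lines were at 52.8 ± 6.84 and 53.3 ± 1.95, a log2 difference of 0.02 (95% interval -0.21 to 0.25). That difference turned to -0.11 after quantile normalization, -0.089 after rescaling, -0.037 with voom weights and -0.090 without shRNA-NC cytokines replicate 1. In all, 3 of the 7 tested receptors rose and 2 fell in medium, and 2 rose and 1 fell with cytokines, beside 47.0% and 45.6% of all genes that passed in either direction.

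**Figure D2:**
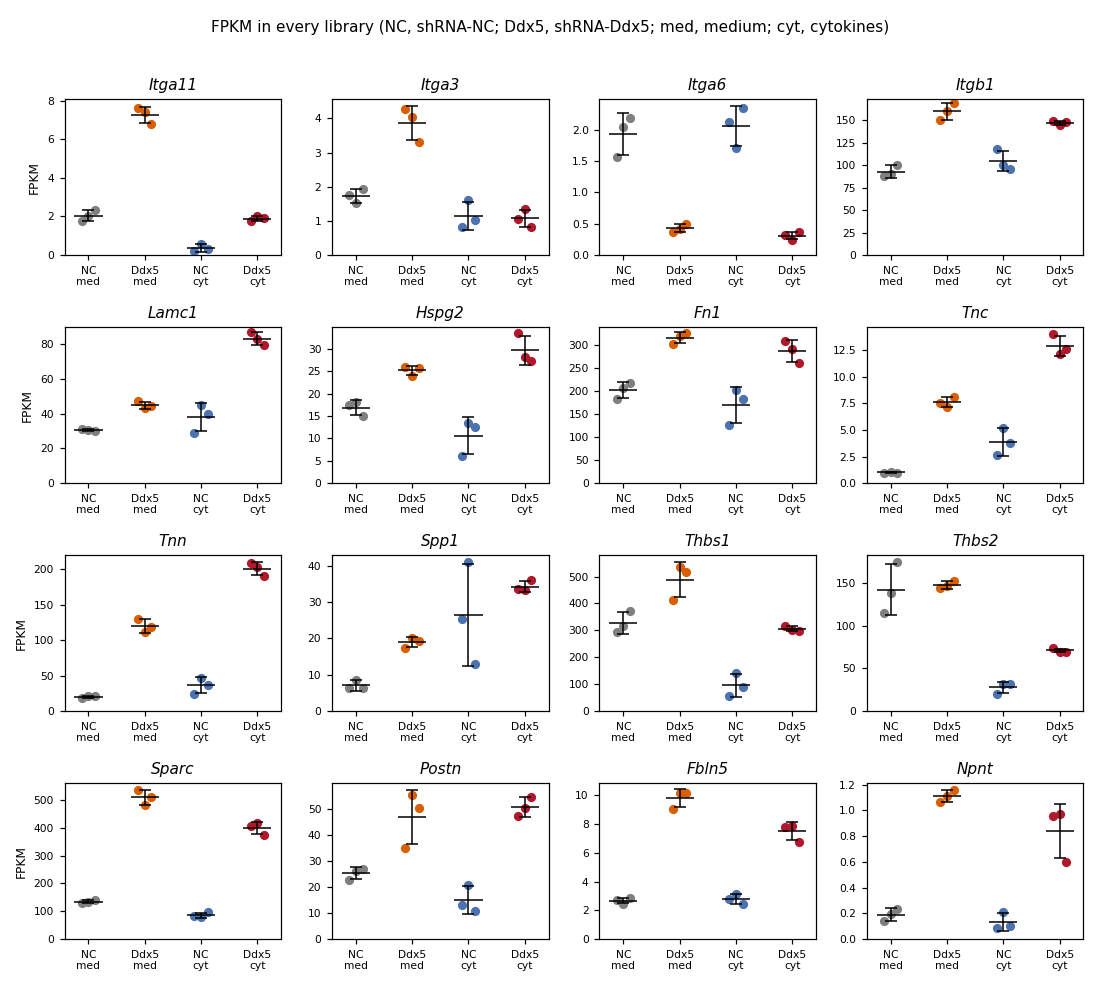
FPKM (vertical axes, each starting at 0) of 16 of the tested genes in each library (points), with the mean and SD of the 3 libraries of a group (bars). *Itga11* is at 6.78 to 7.60 in the shRNA-*Ddx5* libraries in medium against 1.79 to 2.35 in the controls, *Itga6* shows the opposite order, and *Spp1* spreads from 12.8 to 41.0 in the shRNA-NC cytokine group.

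Of the laminin chains, only *Lamb1*, *Lamb2* and *Lamc1* passed the limit, and each went its own way. *Lamc1* (gene 226519, chr1:153094668-153208532, minus strand) encodes the γ1 chain, which is shared by most laminins. It was at 31.4, 30.4 and 30.1 FPKM in shRNA-NC and 47.1, 43.4 and 44.3 in shRNA-*Ddx5* cells in medium, and at 29.1, 45.0 and 40.0 against 87.0, 83.2 and 79.4 with cytokines. Within each condition it was higher in every shRNA-*Ddx5* library than in any shRNA-NC library. The rise was 1.47-fold in medium (log2 fold change 0.54, SE 0.13, limma adjusted p = 0.0050) and 2.19-fold with cytokines (1.13, SE 0.13, limma adjusted p = 3.7e-05). *Lamb1*, the β1 chain, fell instead. In medium its means were 7.69 ± 0.626 and 6.30 ± 0.131 FPKM (SD, n = 3, log2 fold change -0.25, limma adjusted p = 0.042), and with cytokines 15.4 ± 1.48 and 10.9 ± 0.906 (-0.46, limma adjusted p = 0.0017). The fall in medium lost the call without any of 8 libraries, that is, all but shRNA-NC medium replicate 1, shRNA-NC cytokines replicates 1 and 3 and shRNA-*Ddx5* cytokines replicate 3 (limma adjusted p of 0.053 to 0.14), and without the limit on low values (0.061), after quantile normalization (0.076) and with only the libraries of the contrast (0.068). *Lamb2*, the β2 chain, was at 27.0 ± 0.792 and 22.9 ± 1.82 FPKM in the 2 lines in medium and at 19.1 ± 5.19 and 22.6 ± 1.63 with cytokines, and did not pass between the lines (log2 differences -0.23 and 0.27). Without shRNA-NC cytokines replicate 1, which was at 13.2 FPKM, the -0.23 in medium passed (limma adjusted p = 0.032).

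The linkers that join laminin to other matrix networks split as well. *Nid2* (gene 18074, chr14:19801325-19861855, plus strand), which encodes nidogen-2, a bridge between laminin and type IV collagen, was at 4.10, 4.03 and 3.99 FPKM in shRNA-NC and 8.40, 8.28 and 8.10 in shRNA-*Ddx5* cells in medium. The cytokine libraries were at 1.31, 2.81 and 2.56 and at 7.40, 7.81 and 6.50. No libraries of the 2 lines overlapped, and the rise was 2.04-fold in medium (log2 fold change 0.88, SE 0.15, limma adjusted p = 0.00082) and 3.25-fold with cytokines (1.38, SE 0.15, limma adjusted p = 3.6e-05). Its paralogue *Nid1* had at most 1 fragment in any library. *Hspg2* (gene 15530, chr4:137196062-137297941, plus strand) encodes perlecan, a large heparan sulfate proteoglycan of pericellular and basement membrane matrix. It was at 17.5, 18.2 and 14.9 FPKM in shRNA-NC and 25.9, 24.0 and 25.7 in shRNA-*Ddx5* cells in medium, and at 5.95, 13.4 and 12.6 against 33.4, 28.2 and 27.3 with cytokines. The lines were apart in both conditions. The test was passed with cytokines (2.79-fold, log2 fold change 1.46, SE 0.22, limma adjusted p = 0.00030) and not in medium (1.49-fold, log2 difference 0.56, SE 0.22, limma adjusted p = 0.059). The value in medium passed when only the 6 libraries of that contrast were fitted (limma adjusted p = 0.0059), without shRNA-NC cytokines replicate 1 (0.00088) and without replicate 2 of that group (0.043). *Agrn*, which encodes agrin, was low and fell in medium from 1.61 ± 0.357 to 0.976 ± 0.121 FPKM (SD, n = 3, log2 fold change -0.39, limma adjusted p = 0.021). This call was lost without shRNA-NC medium replicate 2 (-0.29, limma adjusted p = 0.093), without shRNA-*Ddx5* medium replicate 3 (-0.35, 0.075) or without the limit on low values (0.051), and with cytokines the log2 difference was -0.10.

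The adhesive glycoproteins held the largest rises. *Tnn* (gene 329278, chr1:159912599-159981242, minus strand) encodes tenascin-N, also called tenascin-W, a glycoprotein of bone and periosteum. It was at 19.0, 20.6 and 20.8 FPKM in shRNA-NC and 130, 111 and 119 in shRNA-*Ddx5* cells in medium, and at 24.5, 47.1 and 37.0 against 209, 204 and 191 with cytokines. All 6 shRNA-*Ddx5* libraries lay above all 6 shRNA-NC libraries. The rise was 5.97-fold in medium (log2 fold change 2.52, SE 0.18, limma adjusted p = 1.8e-06) and 5.55-fold with cytokines (2.49, SE 0.18, limma adjusted p = 1.9e-06). *Tnc* (gene 21923, chr4:63878022-63965554, minus strand) encodes tenascin-C, a glycoprotein of developing and injured tissue. It was at 0.923, 1.09 and 0.997 FPKM in shRNA-NC and 7.51, 7.21 and 8.14 in shRNA-*Ddx5* cells in medium. With cytokines it was at 2.62, 5.22 and 3.74 and at 14.0, 12.2 and 12.6. The groups did not overlap, with a rise of 7.59-fold in medium (log2 fold change 2.10, SE 0.16, limma adjusted p = 2.5e-06) and 3.35-fold with cytokines (1.55, SE 0.16, limma adjusted p = 1.8e-05). *Npnt*, which encodes nephronectin, a ligand of the α8β1 integrin, was at 0.191 ± 0.0472 and 1.11 ± 0.0459 FPKM (SD, n = 3) in the 2 lines in medium and at 0.133 ± 0.0682 and 0.841 ± 0.212 with cytokines. It rose in both (log2 fold changes 0.83 and 0.70, limma adjusted p = 9.2e-05 and 0.00029), having passed the limit through shRNA-*Ddx5* libraries alone. The gene of its partner subunit, *Itga8*, had at most 14 fragments in any library.

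*Fn1* encodes fibronectin, which is assembled into fibrils by cells through α5β1. Its mean was 203 ± 17.7 FPKM (SD, n = 3) for shRNA-NC and 316 ± 12.3 for shRNA-*Ddx5* cells in medium, and at 170 ± 39.7 and 287 ± 23.8 with cytokines. It rose 1.56-fold in medium (log2 fold change 0.64, SE 0.15, limma adjusted p = 0.0054) and 1.69-fold with cytokines (0.78, SE 0.15, limma adjusted p = 0.0017). After quantile normalization the value in medium was 0.32 and did not pass (limma adjusted p = 0.17). The table gives all splice forms of *Fn1* together, so nothing can be read from it on which exons were included.

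*Spp1* (gene 20750, chr5:104582977-104588919, plus strand) encodes osteopontin, an RGD ligand of αv integrins. It was at 6.23, 8.67 and 6.22 FPKM in shRNA-NC and 17.5, 20.1 and 19.4 in shRNA-*Ddx5* cells in medium, without overlap (2.69-fold, log2 fold change 1.32, SE 0.30, limma adjusted p = 0.0038). With cytokines it was at 25.4, 41.0 and 12.8 against 33.5, 33.3 and 35.9. The wide control group spanned the knockdown group, and the difference did not pass (log2 0.50, 95% interval -0.15 to 1.16, limma adjusted p = 0.19). Without shRNA-NC cytokines replicate 2, the library at 41.0, the difference was 0.88 and passed (limma adjusted p = 0.011).

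The thrombospondins are calcium-binding glycoproteins that bind many matrix proteins and cell surface receptors. Between the lines, *Thbs1* and *Thbs2* passed the test with cytokines only, and *Thbs3* passed in both conditions. *Thbs1* (gene 21825, chr2:117942357-117957614, plus strand) was at 292, 317 and 373 FPKM in shRNA-NC and 414, 534 and 518 in shRNA-*Ddx5* cells in medium, and at 54.2, 141 and 91.1 against 315, 302 and 298 with cytokines. The lines did not overlap in either condition. The 3.20-fold difference with cytokines passed the test (log2 fold change 1.77, SE 0.26, limma adjusted p = 0.00025), and the 1.49-fold difference in medium did not (0.57, SE 0.26, limma adjusted p = 0.092). The latter passed with only the 6 libraries of that contrast (limma adjusted p = 0.024), without shRNA-NC cytokines replicate 1 (0.014) and without replicate 2 (0.024). *Thbs2* (gene 21826, chr17:14885762-14914524, minus strand) was at 115, 138 and 175 FPKM in shRNA-NC and 144, 146 and 153 in shRNA-*Ddx5* cells in medium, with overlap. The cytokine libraries were at 20.3, 31.4 and 31.2 against 73.5, 69.8 and 69.7, without overlap. The difference was 2.57-fold with cytokines (log2 fold change 1.36, SE 0.17, limma adjusted p = 8.5e-05) and did not pass in medium (0.07, 95% interval -0.30 to 0.45), where it turned to -0.20 after quantile normalization, -0.080 after rescaling, -0.029 with voom weights and -0.072 without shRNA-NC medium replicate 1. *Thbs3* was far lower, at 3.50 ± 0.939 and 4.83 ± 0.559 FPKM (SD, n = 3) in medium and at 2.44 ± 0.303 and 4.28 ± 0.479 with cytokines. It rose in both (log2 fold changes 0.39 and 0.62, limma adjusted p = 0.045 and 0.0049). The call in medium was lost without any of 10 libraries, all but shRNA-NC medium replicate 1 and shRNA-NC cytokines replicate 2 (log2 0.24 to 0.45, limma adjusted p of 0.051 to 0.16), and without the limit on low values, after rescaling, with only the libraries of the contrast and with voom weights (0.095 to 0.15).

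*Sparc* (gene 20692, chr11:55284985-55310906, minus strand) had the highest mean FPKM of the matricellular and elastic fibre genes as grouped here, which leave out the thrombospondins and tenascins, and the lowest adjusted p of the 26 genes in both comparisons of the lines. It encodes a collagen-binding glycoprotein, also called osteonectin. It was at 130, 134 and 141 FPKM in shRNA-NC and 536, 481 and 512 in shRNA-*Ddx5* cells in medium, and at 83.2, 78.1 and 95.7 against 407, 417 and 374 with cytokines. The lines were far apart in both conditions, 3.78-fold in medium (log2 fold change 1.91, SE 0.09, limma adjusted p = 1.8e-07) and 4.66-fold with cytokines (2.21, SE 0.09, limma adjusted p = 6.9e-08). *Postn* (gene 50706, chr3:54266688-54298462, plus strand) encodes periostin, which binds αv integrins and collagen I. It was at 22.6, 26.3 and 26.9 FPKM in shRNA-NC and 35.2, 55.5 and 50.3 in shRNA-*Ddx5* cells in medium, and at 13.0, 20.9 and 10.7 against 47.4, 50.5 and 54.8 with cytokines. It rose without overlap in both conditions (1.86-fold, log2 fold change 0.85, SE 0.21, limma adjusted p = 0.0074, and 3.42-fold, 1.76, SE 0.21, limma adjusted p = 6.8e-05).

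*Fbln5* (gene 23876, chr12:101712824-101785541, minus strand) encodes fibulin-5, an RGD protein needed for elastic fibre assembly. It was at 2.70, 2.47 and 2.83 FPKM in shRNA-NC and 9.07, 10.2 and 10.2 in shRNA-*Ddx5* cells in medium, and at 2.81, 3.12 and 2.45 against 7.83, 7.87 and 6.77 with cytokines. Its 2 lines were apart by 3.68-fold in medium (log2 fold change 1.56, SE 0.09, limma adjusted p = 6.7e-07) and by 2.68-fold with cytokines (1.16, SE 0.09, limma adjusted p = 4.0e-06). The other elastic fibre genes moved less. *Fbn1*, the microfibril protein fibrillin-1, was at 10.1 ± 0.904 and 11.6 ± 1.06 FPKM (SD, n = 3) in medium and rose with cytokines from 16.99 ± 2.61 to 23.8 ± 2.38 (log2 fold change 0.47, limma adjusted p = 0.0077), a call that was lost after rescaling to the FPKM sum (0.37, limma adjusted p = 0.052). *Emilin1* was at 76.7 ± 15.2 and 101 ± 13.1 FPKM in medium and at 67.3 ± 22.9 and 97.1 ± 4.82 with cytokines. Its log2 differences of 0.41 and 0.59 did not pass (limma adjusted p = 0.17 and 0.060). Without shRNA-NC cytokines replicate 1 the difference in medium passed (limma adjusted p = 0.031), and that with cytokines passed without shRNA-NC cytokines replicate 2 (0.75, 0.033), without its replicate 3 (0.74, 0.039) and without shRNA-NC medium replicate 3 (0.59, 0.048). *Eln*, the elastin gene itself, had 0 fragments in all 12 libraries.

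**Figure D3:**
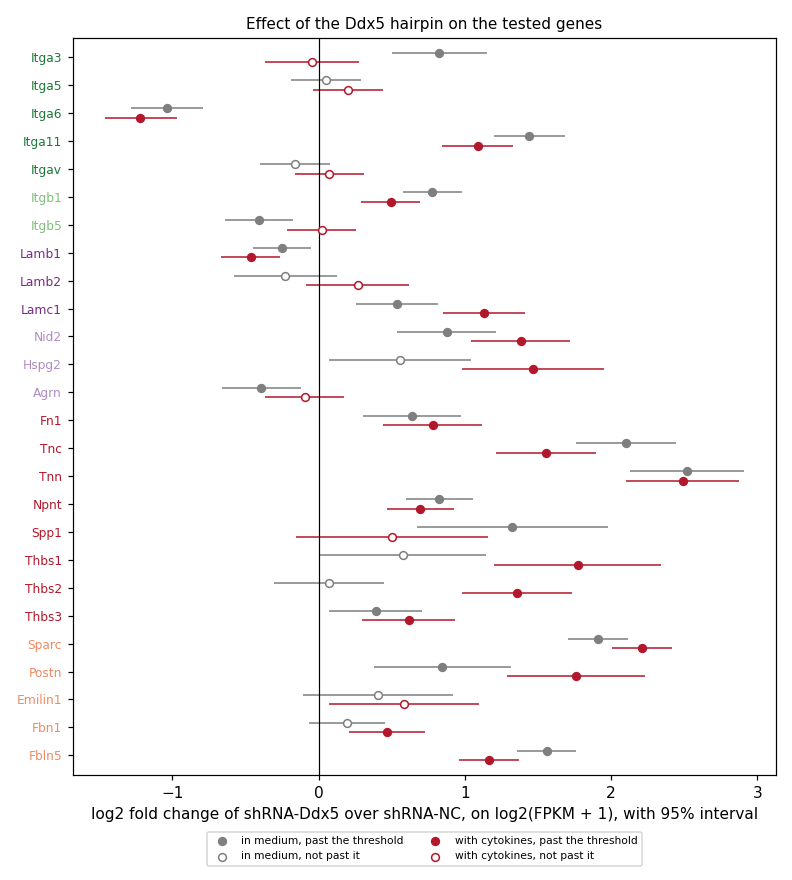
Log2 fold change of shRNA-*Ddx5* over shRNA-NC on log2(FPKM + 1) (horizontal axis) for the 26 tested genes, in medium (grey) and with cytokines (red), with 95% intervals. Filled points passed an adjusted p of 0.05. *Tnn* is at 2.52 and 2.49 and *Itga6* at -1.03 and -1.22, and most ligands lie to the right of 0.

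Receptors and ligands differed in how they moved with the hairpin, as a description without a test. The median log2 fold change of the 7 receptors was 0.05 in medium and 0.07 with cytokines, near the 0.03 and 0.01 over all genes. Of these receptors 3 rose and 2 fell in medium, and 2 rose and 1 fell with cytokines, so their median joins moves in both directions. The median of the 19 ligands was 0.57 and 1.13, with 11 risen and 2 fallen in medium and 14 risen and 1 fallen with cytokines. Over all genes 25.3% rose and 21.7% fell in medium, and 23.5% rose and 22.1% fell with cytokines. The receptor median minus the ligand median was thus -0.52 in medium and -1.06 with cytokines. The summed FPKM of the receptors was 242 ± 15.4 (SD, n = 3) in shRNA-NC and 293 ± 8.06 in shRNA-*Ddx5* cells in medium, and 220 ± 4.72 and 270 ± 2.17 with cytokines. The ligands summed to 1043 ± 79.2 and 1894 ± 48.6 in medium and to 637 ± 151 and 1651 ± 74.9 with cytokines. No shRNA-*Ddx5* library overlapped a shRNA-NC library of the same condition in either sum. *Itgb1* and *Itgb5* were the largest entries of the receptor sum in each of the 4 groups. Pairs known to act together did not always move together: *Itgb1* rose while its partner *Itga5* did not pass, *Itga6* fell while the laminin gene *Lamc1* rose, and *Itgb5* fell in medium while *Itgav* did not pass.

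The cytokines moved fewer of these genes, in both directions. In shRNA-NC cells 6 of the 26 tested genes rose and 9 fell, against 18.6% and 15.2% of all genes (33.8% in all), and 15 did not overlap (45.7% of all genes). In shRNA-*Ddx5* cells 6 rose and 6 fell, against 13.5% and 13.5% (27.0% in all), and 20 did not overlap (47.3%). The comparison within a line shares its libraries with the comparisons between the lines. *Itgav* rose in both lines, from 13.2 ± 1.08 to 20.3 ± 0.263 FPKM (SD, n = 3) in shRNA-NC (log2 fold change 0.59, limma adjusted p = 0.0016) and from 11.8 ± 2.02 to 21.4 ± 1.15 in shRNA-*Ddx5* cells (0.82, limma adjusted p = 0.00015). *Lamb1* (0.92 and 0.70), *Tnc* (1.25 and 0.69), *Tnn* (0.77 and 0.74) and *Fbn1* (0.70 and 0.97) also rose in both lines. *Spp1* rose in shRNA-NC cells (1.64, SE 0.30, limma adjusted p = 0.0016), and *Lamc1* rose in shRNA-*Ddx5* cells (0.87, SE 0.13, limma adjusted p = 0.00034). *Itgav* was the only one of the 7 tested receptors that rose with the cytokines in either line.

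*Itga11* and *Thbs2* fell in both lines. *Itga11* fell 5.56-fold in shRNA-NC (log2 fold change -1.16, SE 0.11, limma adjusted p = 1.8e-05) and 3.84-fold in shRNA-*Ddx5* cells (-1.51, SE 0.11, limma adjusted p = 1.4e-06). *Thbs2* fell 5.16-fold (-2.33, SE 0.17, limma adjusted p = 2.0e-06) and 2.08-fold (-1.05, SE 0.17, limma adjusted p = 0.00082). *Thbs1* fell 3.43-fold in shRNA-NC cells (-1.86, SE 0.26, limma adjusted p = 0.00029), and *Itga3* fell 3.61-fold in shRNA-*Ddx5* cells (-1.23, SE 0.15, limma adjusted p = 7.4e-05). *Sparc* (-0.65 and -0.35) and *Itgb5* (-0.75 and -0.33) fell in both lines. *Lamb2* (-0.52), *Nid2* (-0.68), *Hspg2* (-0.69) and *Postn* (-0.78) fell in shRNA-NC cells, and *Fbln5* (-0.35) fell in shRNA-*Ddx5* cells.

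Several of the smaller falls lost their call when one or another library was left out. In shRNA-*Ddx5* cells *Itgb5* did not pass without shRNA-NC medium replicate 2, without shRNA-*Ddx5* medium replicate 1 or 3 or without any of the shRNA-*Ddx5* cytokine libraries (limma adjusted p of 0.054 to 0.13), or without the limit on low values (0.070). *Sparc* did not pass there without replicate 3 of either shRNA-*Ddx5* group (0.054 and 0.071). *Fbln5* did not pass without shRNA-*Ddx5* medium replicate 2 or 3 or shRNA-*Ddx5* cytokines replicate 3 (0.054 to 0.076). In shRNA-NC cells *Lamb2* and *Hspg2* did not pass without shRNA-NC medium replicate 1 (0.062 and 0.076) or 2 (0.075 and 0.096), with only the 6 libraries of the contrast (0.095 and 0.11) or without the limit on low values (0.067 and 0.083). *Postn* did not pass without shRNA-NC medium replicate 2 (0.051), shRNA-NC cytokines replicate 1 (0.053) or its replicate 3 (0.067).

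**Figure D4:**
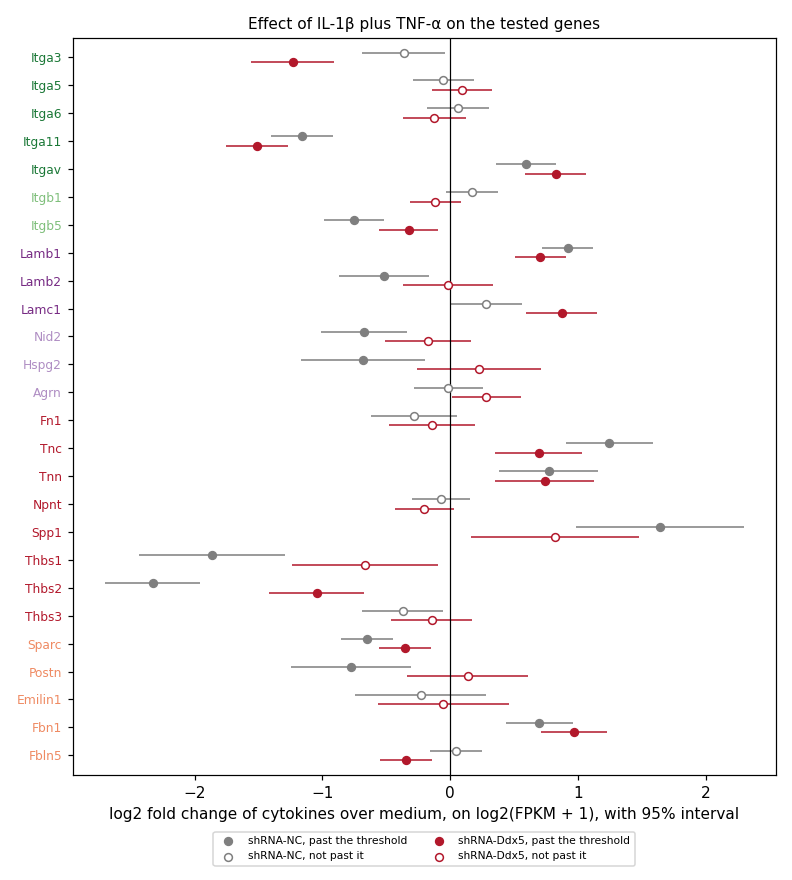
Log2 fold change of cytokines over medium on log2(FPKM + 1) (horizontal axis) for the 26 tested genes, in shRNA-NC (grey) and shRNA-*Ddx5* cells (red), with 95% intervals. Filled points passed an adjusted p of 0.05. *Thbs2* is at -2.33 and -1.05, *Itga11* at -1.16 and -1.51 and *Itgav* at 0.59 and 0.82.

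Whether the effect of the hairpin differed between the conditions was tested as an interaction, and 2 of the 26 genes passed, against 8.21% of all genes (3.46% upward and 4.75% downward). *Thbs2* had a larger difference between the lines with cytokines than in medium (interaction 1.28, SE 0.24, limma adjusted p = 0.0082), since its fall with cytokines was smaller in shRNA-*Ddx5* cells. *Itga3* had a smaller one (-0.87, SE 0.21, limma adjusted p = 0.027), since its excess in medium was lost with cytokines. The *Itga3* call was lost without shRNA-NC medium replicate 1 or 2, shRNA-*Ddx5* medium replicate 1 or 2, or shRNA-*Ddx5* cytokines replicate 1 or 3 (limma adjusted p of 0.050 to 0.074). It was also lost with a pseudocount of 0.1 (0.066), without the limit on low values (0.065), after rescaling (0.064) and with voom weights (0.057). The shRNA-NC cytokine libraries decided how many genes passed, with 5 without replicate 1 and 6 without replicate 2. Without replicate 1, *Lamc1* (0.42), *Hspg2* (0.57) and *Tnc* (-0.75) passed as well, with limma adjusted p of 0.038, 0.040 and 0.020. Without replicate 2, *Lamc1* (0.72), *Hspg2* (1.10), *Thbs1* (1.53) and *Postn* (1.17) did, with 0.020, 0.049, 0.0072 and 0.013. Without replicate 3, *Spp1* (-1.24) did, with 0.017. *Tnc* also passed with a pseudocount of 0.1 (-1.04, limma adjusted p = 0.048) and with voom weights (-1.08, 0.050). With all libraries, these genes were at 0.59, 0.91, -0.55, 1.20, 0.91 and -0.82 in the order *Lamc1*, *Hspg2*, *Tnc*, *Thbs1*, *Postn* and *Spp1*, and did not pass.

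The 23 genes below the limit were 12 integrin subunits and 11 ligands. They had few fragments, and their differences are given as counts, not adjusted for library size, without a test. No laminin α chain passed, although each laminin trimer holds an α chain. *Lama4* was the one that differed most between the lines, with 1, 2 and 1 fragments in shRNA-NC and 17, 15 and 28 in shRNA-*Ddx5* libraries in medium, and 0, 5 and 0 against 20, 37 and 32 with cytokines. *Lama5* had 7 to 11 fragments in shRNA-NC and 13 or 14 in shRNA-*Ddx5* libraries in medium, and 26 to 42 and 20 to 27 with cytokines. *Fbln2* had 12 to 20 and 23 to 32 fragments in medium and 15 to 18 against 64 to 67 with cytokines. *Fbln1*, a paralogue, went the other way, from 21 to 62 fragments in shRNA-NC to 5 to 9 in shRNA-*Ddx5* libraries in medium, and from 7 to 17 to 1 to 6 with cytokines.

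Among the untested integrins, the collagen-binding *Itga1* had 14 to 35 fragments in shRNA-NC and 47 to 66 in shRNA-*Ddx5* libraries in medium, and 7 to 10 against 30 to 34 with cytokines, the same order as *Itga11*. *Itga10*, the collagen receptor subunit typical of chondrocytes, had 16 to 41 and 36 to 69 fragments in medium and 18 to 27 and 33 to 54 with cytokines. Its FPKM in medium, 0.211 to 0.401 in shRNA-NC and 0.434 to 0.758 in shRNA-*Ddx5* libraries, did not overlap. *Itgb3* had 16 to 29 and 33 to 42 fragments in medium but 2 to 9 in all 6 cytokine libraries. *Itga9*, a tenascin receptor subunit, had 7 to 13 and 36 to 47 fragments in medium and 6 to 33 and 24 to 31 with cytokines. *Itgb4*, the β partner of α6 in epithelia, had 6 to 23 fragments over all libraries. *Itga4*, *Itgb6*, *Nid1*, *Vtn* and *Eln* had at most 3 fragments in any library, a count at which presence and absence of a transcript are not told apart at this depth.

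**Figure D5:**
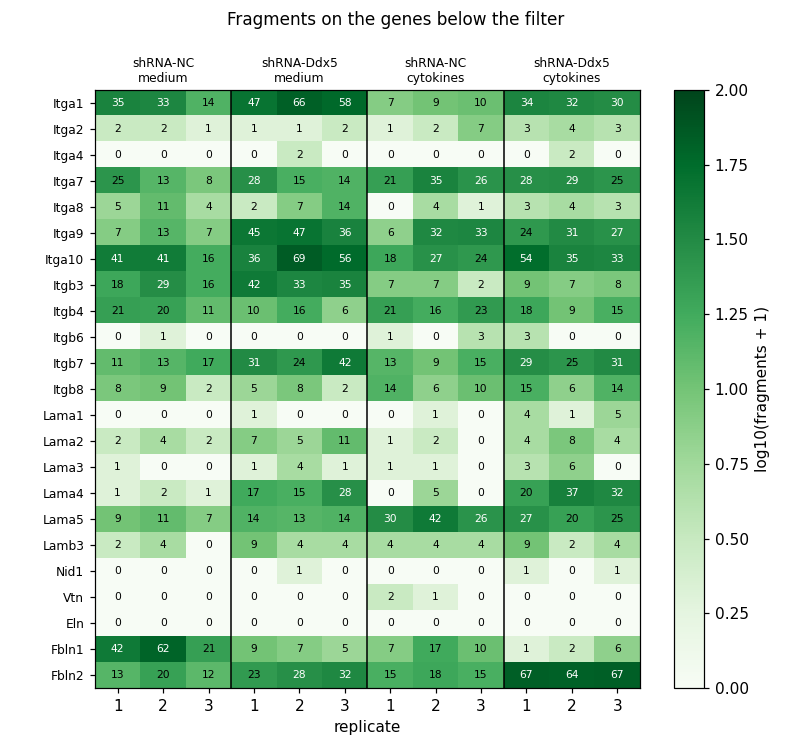
Fragments recovered for the 23 genes below the limit (rows) in each library (columns), with the number of fragments printed in each cell and colour on a log10 scale. *Fbln2* reaches 67 fragments in the shRNA-*Ddx5* cytokine group, *Lama4* has 15 to 37 in shRNA-*Ddx5* libraries and at most 5 in shRNA-NC libraries, and *Eln* is at 0 throughout.

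Integrins act through adaptors in focal adhesions, and cells also grip the matrix through other receptors, so lists of both were read beside the genes above. Of 30 focal adhesion adaptors, 28 were tested, and 12 rose and 5 fell with the hairpin in medium, and their log2 fold changes had a median of 0.15. With cytokines 9 rose and 7 fell (median 0.08). Over all genes 47.0% passed in medium (25.3% upward) and 45.6% with cytokines (23.5% upward). *Nedd9*, a scaffold of integrin signalling, rose in both conditions, its control and knockdown means being 3.79 ± 0.129 and 10.5 ± 0.453 FPKM (SD, n = 3) in medium and 3.48 ± 1.64 and 16.5 ± 0.277 with cytokines. *Ptk2b*, a relative of focal adhesion kinase, rose as well, from 0.384 ± 0.0697 to 2.44 ± 0.108 and from 0.214 ± 0.124 to 0.888 ± 0.117. It passed the limit through shRNA-*Ddx5* libraries alone. *Parvb*, which links integrin-linked kinase to actin, fell from 8.04 ± 0.784 to 3.14 ± 0.284 and from 7.84 ± 0.223 to 2.42 ± 0.195. Of 15 matrix receptors other than integrins, 13 were tested. In medium 3 rose and 1 fell, and with cytokines 7 rose and 2 fell, with medians of 0.14 and 0.27, beside the same 47.0% and 45.6% of all genes. The heparan sulfate proteoglycan *Sdc3* rose too, with means of 54.9 ± 14.1 and 134 ± 19.6 FPKM without and 34.6 ± 9.26 and 106 ± 5.45 with the cytokines. *Cspg4* fell, from 8.67 ± 1.21 to 3.61 ± 0.364 and from 2.96 ± 1.19 to 0.971 ± 0.0883. Of 7 integrin subunits outside the 49 genes, *Itga2b* alone was tested. It fell in medium, from 5.08 ± 0.748 to 2.74 ± 0.353. With cytokines it was at 2.83 ± 0.617 and 2.82 ± 0.265 and did not pass (limma adjusted p = 0.98). The interaction for this gene passed (0.70, limma adjusted p = 0.044).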

How the data were processed

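RNA-seq of 12 ATDC5 libraries in 4 groups was used, with groups and replicate numbers taken from the labels and doses from the study's methods. The authors deposited FPKM per gene for 46731 genes (400 unnamed loci). Per the submitters' processing notes, HISAT2 2.0.5, featureCounts 1.5.0-p3, DESeq2 1.20.0 and GATK 3.7 were used with mm10, while the table's coordinates lie on GRCm39 sequences. All 49 genes overlap their GENCODE M39 models on GRCm39. Strandedness is not given in the sources used here, so overlapping antisense reads cannot be told apart. FPKM times gene length gave whole fragments for 100% of values (tolerance 0.01 fragments), 14119199 to 19276520 per library. The authors' denominators were 0.957 to 1.08 times these sums, so a scaling between libraries was already applied. The precision of low genes is limited by counting error.

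log2(FPKM + 1) was fitted with limma 3.58.1 in R 4.3.3 (4 group means, no covariate, eBayes with trend) for the 12368 genes that had 1 FPKM or more in 3 or more libraries. P-values were adjusted by Benjamini-Hochberg over these genes, with a threshold of 0.05. A count model was not used as the values are FPKM. The 49 genes and all lists were chosen with earlier results of these data known. Library values are given for genes past the threshold with a log2 change of 1 or more in size in any contrast, and for the gene of highest mean FPKM in each role. Other members got means, ranges or counts. Other lists got at most 2 genes that rose and 2 that fell, of which 1 gene is not reported here. Tested on simulated data for the comparison in medium (200 changed of 12368 genes), the fit recovered 40.3% of 62 1.5-fold, 84.1% of 69 2-fold and 97.1% of 69 4-fold changes, and called 5 unchanged genes. Alternatives tried were no filter, a filter in all 12 libraries, a pseudocount of 0.1, quantile normalization, rescaling to the FPKM sum, a replicate block, only the libraries of the contrast, eBayes without trend, voom weights on the recovered fragments, and each library left out. RGD codons were read from GENCODE M39 coding transcripts and promoters from RefSeq (GRCm38.p6). Protein sequences were not used here. Python 3.11.15 with matplotlib 3.10.9 drew the figures.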

Additional observations from a re-analysis of the deposited data

Results flagged for a closer look

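The effect of the *Ddx5* hairpin differed between medium and cytokines for 2 of the 26 tested genes, by the interaction term of the limma fit. Over all genes 8.21% passed this test, so the count does not set these genes apart. For *Thbs2* the log2 difference between the lines was larger with cytokines by 1.28 (limma adjusted p = 0.0082). Its 3 shRNA-*Ddx5* libraries were all above the 3 shRNA-NC libraries with cytokines, and the groups overlapped in medium. For *Itga3* the interaction was -0.87 (limma adjusted p = 0.027). All 3 shRNA-*Ddx5* libraries were above the controls in medium, and the groups overlapped with cytokines. The values of the *Itga3* interaction under the alternatives are given with the comparison above. Groups of 3 libraries were not searched for single outlying samples.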

How the results depend on the processing

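Over the 88 single-gene results that were followed, 65 passed the threshold, and 53 of these passed under each alternative that could be computed. None of the 65 changed direction. Across the alternatives other than left-out libraries, the genes past the threshold numbered 12 to 22 for the hairpin in medium (18 as reported), 14 to 22 for the hairpin with cytokines (18), 13 to 17 for cytokines in shRNA-NC (15) and 9 to 15 for cytokines in shRNA-*Ddx5* cells (12). With each library left out in turn, they numbered 15 to 21, 18 to 20, 12 to 16 and 9 to 14. The lowest counts of the first kind came with the filter in all 12 libraries (20 genes tested) and the highest with no filter (48 tested). For cytokines in shRNA-NC, the 13 also came with only the libraries of the contrast, and the 17 also after rescaling and with voom weights. For the interaction (2 as reported), 1 gene passed with the filter in all 12 libraries and 1 after rescaling, 3 passed after quantile normalization, and 1 to 6 passed with a library left out. Rescaling to the FPKM sum shifted the median of all genes to -0.11 and -0.09 for the hairpin in medium and with cytokines and to -0.13 and -0.11 for the cytokines in shRNA-NC and shRNA-*Ddx5* cells.

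The receptor median minus the ligand median was -0.52 in medium, and -0.70 to -0.46 with a library left out. With cytokines it was -1.06, and -1.31 with a pseudocount of 0.1, -0.94 after quantile normalization, -1.31 with voom weights and -1.12 to -0.87 with a library left out. The sign of some small differences that did not pass turned under other scalings. For the hairpin in medium, *Itga5* was at -0.13, -0.099 and -0.048 and *Thbs2* at -0.20, -0.080 and -0.029 after quantile normalization, after rescaling and with voom weights. For the hairpin with cytokines, *Itgb5* was at -0.11, -0.089 and -0.037 in the same order, and *Itgav* at -0.033 after rescaling. With a library left out, *Itga3* ranged from -0.16 to 0.10 and *Itgb5* from -0.090 to 0.079 with cytokines, and *Itga5* from -0.025 to 0.13 and *Thbs2* from -0.072 to 0.23 in medium. The reason for these changes was not tested.

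The replicate numbers were not shown to pair the libraries. Deviations from the group means of same-numbered libraries correlated at 0.0425 to 0.448 between the lines in medium and at -0.0855 to 0.121 with cytokines. With the replicate block, 17, 18, 15, 11 and 2 genes passed in the 5 contrasts in the order above. The block ended the calls of *Lamb1* for the hairpin in medium, *Itgb5* for cytokines in shRNA-*Ddx5* cells and *Hspg2* for cytokines in shRNA-NC cells (limma adjusted p = 0.063, 0.065 and 0.052) and no other call. Genes below 1 FPKM rest on few fragments, so their differences were not tested.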

Other observations

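Relatives of the ligands, from a list of 35 matrix glycoproteins outside the 49 genes, were read in the same fit. Of these, 13 passed the limit on low values. With the *Ddx5* hairpin 6 rose and 3 fell in medium, and 11 rose and 1 fell with cytokines, with median log2 fold changes of 0.32 and 0.71. Over all genes 25.3% rose and 21.7% fell in medium, and 23.5% rose and 22.1% fell with cytokines. *Emilin2*, a paralogue of *Emilin1*, rose in both conditions, its control and knockdown means being 1.42 ± 0.248 and 7.57 ± 1.66 FPKM (SD, n = 3) in medium and 1.26 ± 0.589 and 8.74 ± 0.430 with cytokines. *Tgfbi*, a paralogue of periostin, rose from 58.5 ± 4.10 to 92.9 ± 7.12 FPKM and from 17.5 ± 2.54 to 44.6 ± 3.67 in the same order. *Smoc2*, a relative of SPARC, fell from 68.4 ± 6.84 to 41.2 ± 2.63 and from 130 ± 13.3 to 69.4 ± 3.45.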
